A study of Caenorhabditis elegans with 3 samples.

Results

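The genes described here are pes-10 and the sdz genes of Caenorhabditis elegans, a group named for transcription in the early embryo. A nematode embryo starts with RNA and protein from its mother, and its own genome is switched on within the first cleavages. The gene pes-10 is one of the first to be transcribed from the embryo's genome, and its minimal promoter is widely used in reporter genes. The name sdz stands for SKN-1-dependent zygotic transcript, because these genes were found through their need for SKN-1, a maternal transcription factor that specifies the endoderm and mesoderm lineages. Trimethylation of lysine 4 on histone H3 (H3K4me3) marks nucleosomes around the starts of active genes, so a peak of the mark is usually sought at a gene's start.

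The members were the peak intervals listed with a gene symbol that starts with sdz- or equals pes-10, which made 1 of the 95 F11 intervals and 6 of the 639 F14' intervals. The F14' interval that overlapped the F11 pes-10 interval was added under its own gene name, lgc-35, which brought the F14' members to 7. That made 8 member intervals of 734 in all. They were therefore chosen by presence in the peak tables, and their presence, folds and scores are given as a description. That these genes were being transcribed could not be checked, since no RNA was measured in the data used here.

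Chromatin immunoprecipitation and sequencing (ChIP-seq) of H3K4me3 was done on whole wild-type nematodes. F11 nematodes were raised on plates with the sulfonamide antibiotic sulfamethoxazole (SMX) in K-medium for 11 generations, with 6 days of exposure in a generation. F14' nematodes descended from that line and were kept on K-medium without the drug, as was the control, and all groups fed on Escherichia coli OP50 at 20 °C. The labels call F14' the first progeny without exposure but number it 14, so how many generations it spent off the drug is not clear. Each of the 3 groups had 1 library, so nothing below has a replicate check and no p-value across peaks was computed. The generation of the control and the stage at which F14' and control nematodes were collected are not given in the sources used here. No table of the control library alone was analysed here, and the total depth of the libraries is unknown, so all intervals given with densities cover the counting error of tags only. Folds, scores, classes and gene names are the authors' deposited values. Both tables are labelled as set against the control, but the background behind the F14' folds is not stated.

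In F11 the only member was a dense interval just beyond the 3′ end of pes-10. It spanned 3166 bp on chromosome II (12843265 to 12846430, build ce10) and held 7733 tags, which is 2443 tags per kb (95% Poisson interval 2388 to 2498). Its tag density ranked 5 of 95 F11 intervals, of which 8.42% reached 1000 tags per kb, and was 7.79 times the median F11 interval, 314 tags per kb. The deposited fold over the peak caller's background was 5.08 and the deposited score, -10 times the base-10 logarithm of p, was 527. The authors' deposited false discovery rate for it was 100%. No such rate is given for F14' intervals, so the F14' members cannot be compared with it on this measure.

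The same stretch was dense in F14', where it was listed under lgc-35, which encodes a ligand-gated ion channel. The F14' interval (chromosome II, 12843236 to 12846629) held 10072 tags over 3394 bp, which is 2968 tags per kb (2910 to 3026). It had a fold of 6.19, lay at the usual ceiling of the score, 3100, and ranked 27 of 639 in tag density, in a list where 12.1% reached 1000 tags per kb. It contained the whole of the F11 interval, and 93.3% of it was shared. Among all intervals, 55.8% of those in F11 and 8.45% of those in F14' overlapped one of the other table. The nearest F14' intervals that did not overlap the F11 pes-10 interval lay 4855 bp from it on the lgc-35 side and 15248 bp from it on the other.

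Neither table's interval held the start of a gene it was listed with, which 15.8% of all F11 and 35.8% of all F14' intervals did. The pes-10 gene runs on the minus strand from 12847745 to 12846331, so the F11 interval began 1315 bp and ended 4480 bp downstream of its start. Only 100 bp of the F11 interval, 7.07% of the 1415 bp gene, lay within pes-10. The F14' interval reached farther into pes-10, to 12846629. The F11 table classed its interval as intergenic, centred 2898 bp downstream of the pes-10 start. The F14' table classed its interval as upstream, centred 7360 bp before the start of lgc-35. In both tables the nearest start listed was that of pes-10, at a distance of 2812.5 bp from the F14' centre. In the RefSeq gene order lgc-35 and pes-10 are direct neighbours, so the dense stretch lay mostly between the 2 genes, downstream of pes-10 and upstream of lgc-35.

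**Figure D1:**
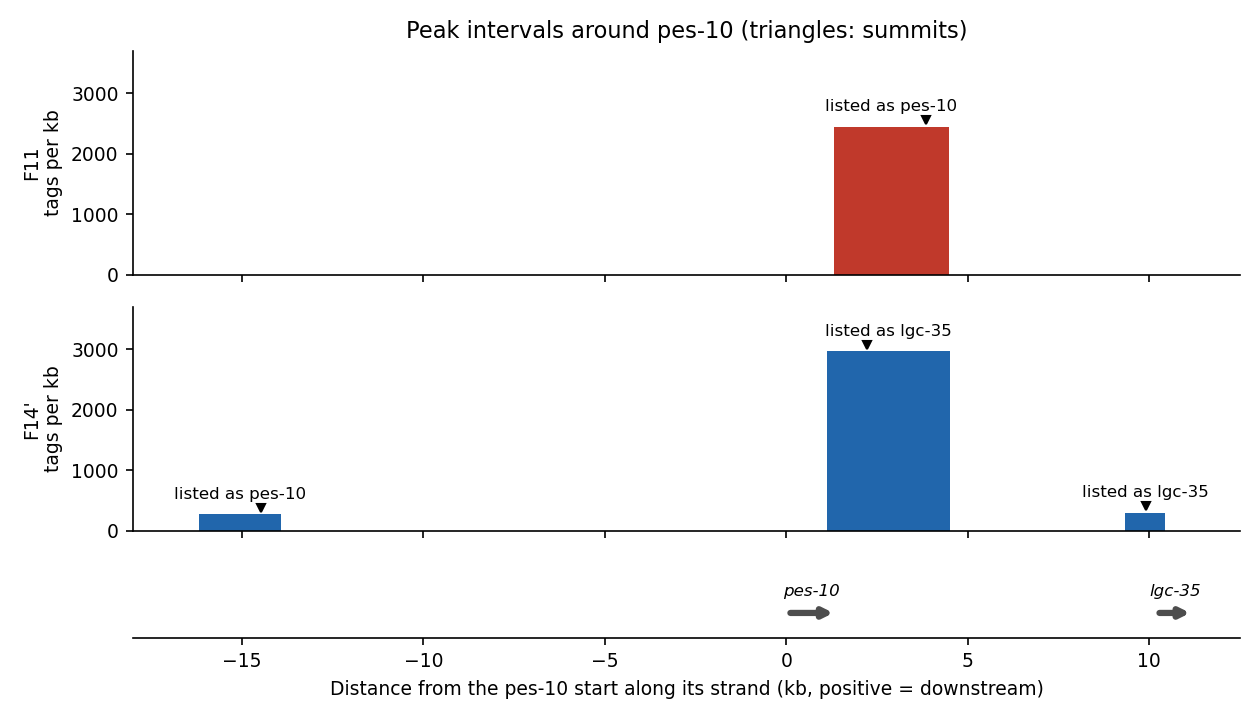
Peak intervals within 25 kb of the pes-10 start in F11 (top) and F14' (middle), drawn as bars whose height is tags per kb and whose width is the interval, with genes as arrows (bottom) and positions in kb along the pes-10 strand. The dense interval at 1.1 to 4.5 kb is in both tables under different gene names, and the F14' interval listed under pes-10 lies about 15 kb away.

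The highest point of the dense stretch differed between the libraries. The F11 summit lay 3866 bp downstream of the pes-10 start, at position 12843879, and the F14' summit at 12845518. They were 1639 bp apart, against a median of 282 bp over the 54 overlapping pairs of intervals, and 4 pairs lay farther apart. Wider intervals leave room for larger distances, and these were 3166 and 3394 bp wide against table medians of 1978 bp in F11 and 1788 bp in F14'. The error of a summit position is unknown with 1 library per group. The 8 pairs with at least 1000 tags per kb in both tables, which include this one, had a median of 82.5 bp. They ran from 0 bp at Y51A2B.16 to the 1639 bp of this pair. Those listed in F11 under C34E11.9 (1583 bp) and Y54F10AM.8 (890 bp) were also far apart.

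Tag density there was lower in F11 than in F14', with 2443 against 2968 tags per kb, a ratio of 0.823 (95% counting interval 0.799 to 0.848). Total depth is unknown, so this ratio has to be read beside the other pairs. Over all 54 pairs the F11 to F14' ratio had a median of 0.972 and ran from 0.495 to 1.30, and 28 lay below 1. The pes-10 pair had the 10th lowest ratio, within the spread of the other pairs. The pairs nearest to it in this ratio were those of ZK993.4 (0.812), Y39E4B.13 (0.839) and Y54B9A.1 (0.842), all with far fewer tags per kb, between 332 and 534. In tag density the interval stood just below that of Y54F10AM.8 in both tables, with 2623 in F11 and 3006 in F14'. The next interval below it was that of Y75D11A.1, ZC190.9 and linc-64 in F11 (1660) and that of Y119C1B.13 in F14' (2832).

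**Figure D2:**
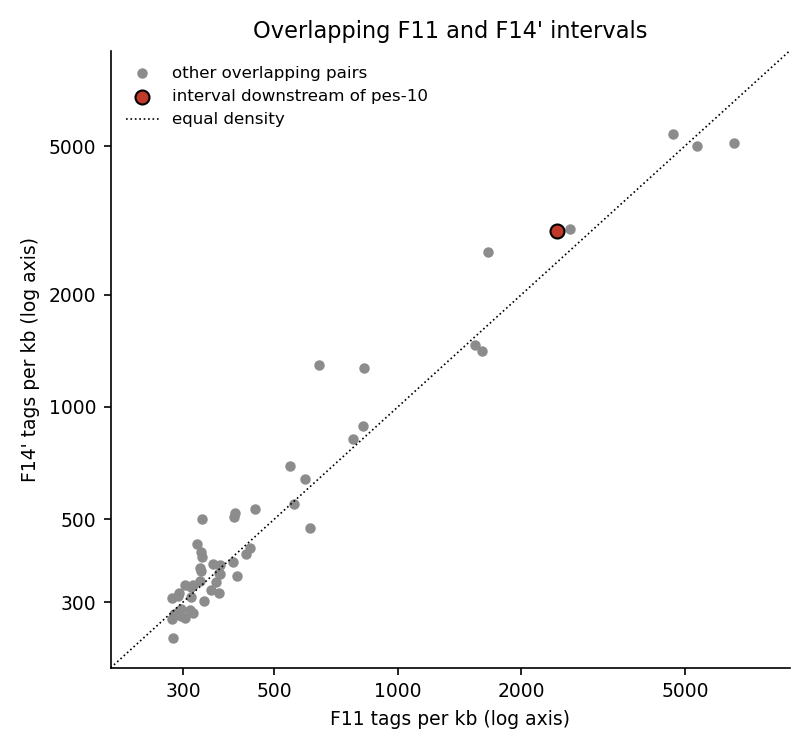
Tags per kb of F11 (x axis) and of F14' (y axis) at the 54 pairs of overlapping intervals, 1 library per group, both axes logarithmic. The pair downstream of pes-10 (2443 and 2968) lies above the line of equal density, among pairs that scatter on both sides of it.

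The p of a peak depends on its tags and on a background, so the background can be computed back as the Poisson mean at which those tags have that p. For the F11 pes-10 interval it came to 2041 tags per kb, which is 8.13 times the median of 251 over F11 intervals. The interval's own tags spread over 10 kb, with the median background for the rest, would give 945 tags per kb. The computed background was 2.16 times that density, but 10 kb is only 1 possible width. F11 peaks are labelled as set against the control, so the caller's background need not come from F11 tags. What made up the background was not tested. Over its whole width the interval thus held 1.20 times the background, near the F11 median of 1.19, while its deposited fold was 5.08. The 2 values need not refer to the same width, so their difference does not mark either as wrong. For F14' the score was at its ceiling, so the background was at most 1989 tags per kb, and the tags were at least 1.49 times it. Whether the control library is as dense at this stretch was not tested.

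The F14' table also had an interval under the name pes-10, and it was a different stretch. It lay on chromosome II from 12861678 to 12863938, centred 15063 bp upstream of the pes-10 start, and was classed as upstream. Of the F14' intervals, 2.66% were centred over 10 kb from every start they were listed with. In the RefSeq gene order Y46G5A.28, Y46G5A.29, the piRNA gene 21ur-14976 and snf-5, a gene of the neurotransmitter symporter family, follow pes-10 on that side. The interval held 621 tags over 2261 bp, 275 tags per kb (253 to 297), with a fold of 2.06 and a score of 67.7. The dense stretch held 10.8 times as many tags per kb in the same library.

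The sdz genes had no interval in F11 and 5 in F14', at sdz-19, sdz-16, sdz-20, sdz-14 and sdz-30. The RefSeq table names 35 sdz genes, of which 32 are protein-coding and 3 are pseudogenes. In F14' 5 of the 35 had an assigned interval (14.3%, exact 95% binomial interval 4.81 to 30.3%), and all of these are protein-coding. Among all 46926 reference genes, 0.19% had one in F11 and 1.78% in F14', and among protein-coding genes 0.325% in F11 and 2.55% in F14'. Since presence in the table was the rule by which the 5 were found, nothing is read from this difference. By chromosome, the 5 were both of those on chromosome I, the 1 on chromosome X, 1 of 5 on chromosome III and 1 of 6 on chromosome V, with 0 of 17 on chromosome II and 0 of 4 on chromosome IV. Of all genes on chromosome II, 2.43% had an F14' interval, so a count of 0 among 17 is near that share. The shares of all genes were 2.31% on chromosome I, 2.77% on III, 1.23% on IV, 2.52% on V and 1.08% on X. With 1 to 6 sdz genes on each of those, nothing is read from their counts.

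The sdz intervals sat in different places relative to their genes, and 1 of the 5 contained a start. The interval of sdz-19 (chromosome X, 12502185 to 12503269) covered the whole 748 bp gene and reached 6 bp beyond its start, with the summit 552 bp inside. That of sdz-16 (chromosome V, 17326135 to 17327724) began 172 bp downstream of the start, covered 87.3% of the gene and ran past its end. That of sdz-30 (chromosome I, 13306798 to 13308617) began 605 bp downstream of the start and lay wholly inside the gene, over 73.3% of its length. These 3 were classed as promoter intervals, with centres 536, 967 and 1514 bp downstream of the starts. Of all F11 intervals 42.1% were classed as promoter, and 60.1% of those in F14'.

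The other 2 sdz intervals lay upstream and did not touch their genes. That of sdz-20 (chromosome III, 13331335 to 13333349) ended 1149 bp before the start and was centred 2156 bp upstream. That of sdz-14 (chromosome I, 12218995 to 12220732) ended 1278 bp before the start and was centred 2146 bp upstream. Both were classed as upstream, a class that held 20.7% of F14' intervals. Of all F11 intervals 31.6% overlapped a gene they were listed with, and 57.9% of F14' ones did.

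**Figure D3:**
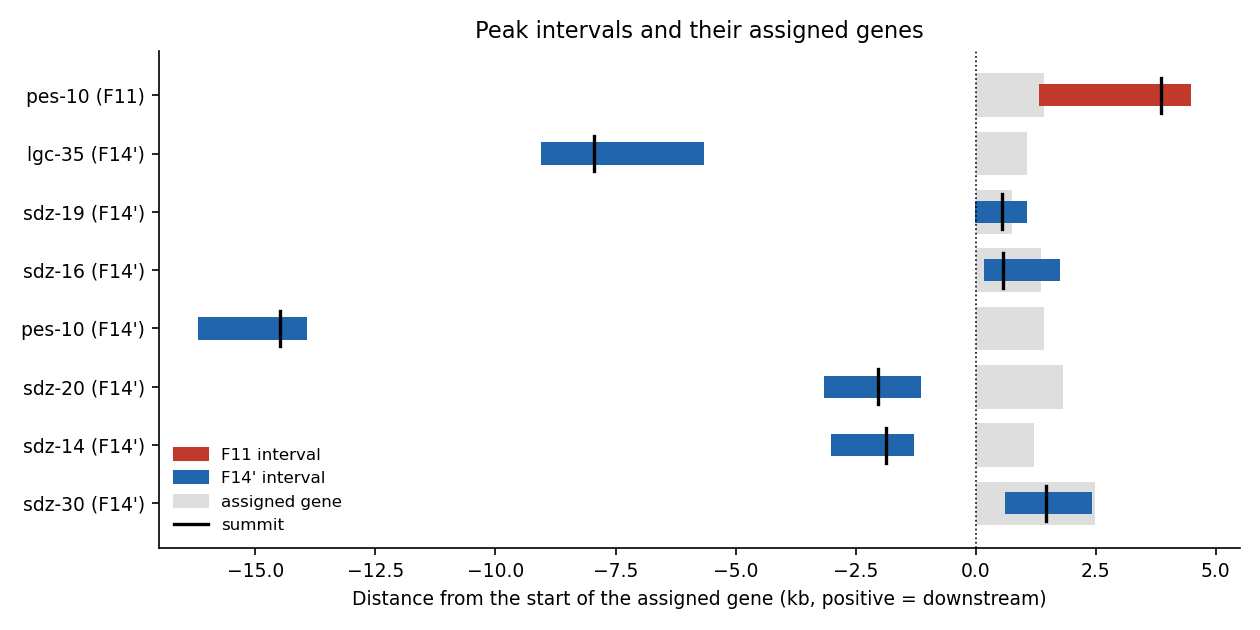
The 8 member intervals (coloured bars) drawn relative to the start of the gene they are listed with (dotted line), in kb along that gene's strand, with the gene in grey and the summit as a black tick. Of the 8, the sdz-19 interval alone reaches a start, and the F14' intervals listed with lgc-35 and pes-10 lie 5.7 kb or more upstream of theirs.

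The sdz intervals were shallow and alike in tag density. The interval of sdz-19 held 338 tags, 312 per kb (279 to 347), and had the highest fold of the sdz intervals, 4.21, at a score of 64.8. That of sdz-16 held 481 tags, 303 per kb (276 to 331), with a fold of 2.23 and a score of 47.7. That of sdz-20 held 588 tags, 292 per kb (269 to 316), with a fold of 2.04 and a score of 70.1. These 3 lay close to the F14' medians of 301 tags per kb and a fold of 2.3, except for the fold of sdz-19, which ranked 120 of 639.

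The interval of sdz-14 held 483 tags, 278 per kb (254 to 304), with a fold of 1.91 and a score of 51.5. That of sdz-30 held 496 tags, 273 per kb (249 to 298), with a fold of 1.89. Its score of 31.4 was close to the lowest of the table, 30.0. In order of tag density sdz-19, sdz-16, sdz-20 and sdz-14 came first, followed by the distant pes-10 interval and sdz-30. All 15 pairings of these 6 had counting intervals that overlapped, so their order is not resolved at these tag counts. The dense stretch beside pes-10 held between 9.53 and 10.9 times as many tags per kb as each of them.

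**Figure D4:**
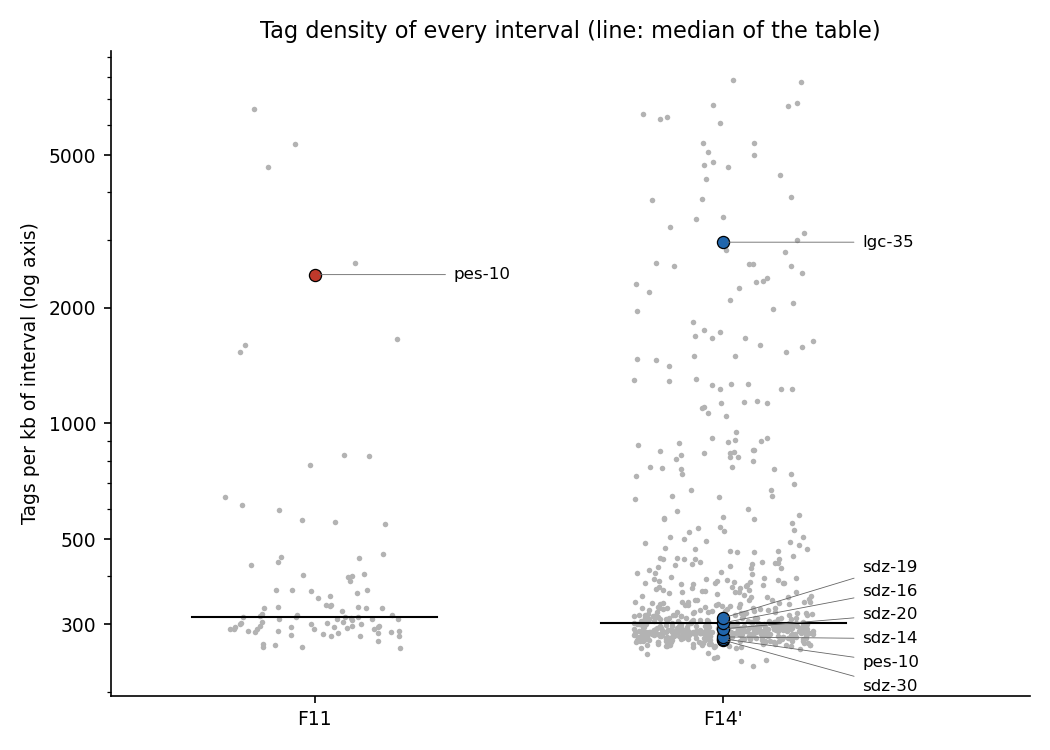
Tags per kb (log axis) of every interval in F11 (left) and F14' (right), with the members coloured and labelled by their listed gene and the median of each table as a line. The sdz intervals and the distant pes-10 interval (273 to 312) sit near the F14' median of 301, and the stretch listed as pes-10 in F11 and as lgc-35 in F14' sits far above both medians.

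Their widths ran from 1085 bp at sdz-19 to 2015 bp at sdz-20, with a median of 1738 bp against 1788 bp over all F14' intervals. The background computed from tags and p was between 226 and 249 tags per kb at the 5 sdz intervals, against a median of 235 over F14' intervals. Over whole intervals the tags were 1.16 times that background at sdz-30, 1.22 at sdz-16, 1.23 at sdz-14, 1.25 at sdz-20 and 1.33 at sdz-19, and the F14' median was 1.23. By class, promoter intervals of F14' had a median of 295 tags per kb and upstream ones 324, so the promoter intervals of sdz-19 and sdz-16 lay above the median of their class. Those of sdz-30, sdz-20 and sdz-14 lay below theirs. The promoter median lay within the counting intervals of sdz-19, sdz-16 and sdz-30, so their side of it is not resolved. The counting intervals of sdz-20 and sdz-14 lay wholly below the upstream median.

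The intervals next to them in tag density belonged to genes of other kinds. Above and below sdz-16 stood nep-17, a neprilysin peptidase gene (303 tags per kb), and ceh-82, a homeobox gene (302). Around sdz-30 stood mboa-6, a membrane-bound acyltransferase gene (273), and clec-164, a C-type lectin gene (273). Below sdz-20 and sdz-14 stood the chitinase-like gene chil-24 (292) and F49F1.11 (278), and around the distant pes-10 interval Y52B11A.19 (275) and Y66D12A.26 (275). Clusters of piRNA genes, 1 of them listed together with Y116A8C.40, stood on both sides of sdz-19 (312 and 311) and above sdz-20 (292) and sdz-14 (278).

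None of the 5 sdz intervals overlapped an F11 interval, and of all F14' intervals 8.45% did, so 0 of 5 is near that share. The nearest F11 interval lay 29128 bp from sdz-30, at M01E5.1, and 39406 bp from sdz-16, at Y20C6A.1. For sdz-20, sdz-14 and sdz-19 it lay between 246104 and 712220 bp away. The F11 table lists no interval under 346 tags or under a fold of 1.63, and values below its threshold are not listed. Absence from F11 therefore does not give a lower density there, and the difference between the libraries at these 5 genes was not tested.

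Other genes of the early embryo, and genes of other tissues, were set beside pes-10 and the sdz genes. In F11 none of the 141 genes of 8 lists had an interval, and in F14' 8 had one. Of all reference genes 0.19% in F11 and 1.78% in F14' did, and of protein-coding ones 0.325% and 2.55%. Of the endoderm and mesoderm specification genes, which include the SKN-1 targets med-1 and med-2 and the GATA factor genes end-1, end-3 and elt-2, 0 of 17 were listed in F14'. Of 12 other genes known for early embryonic transcription, among them vet-1, vet-6 and pes-1, 0 were listed. Of 21 maternal regulators, skn-1 and pie-1 included, only taf-4 was, a subunit of the general transcription factor TFIID (330 tags per kb, fold 2.53, centred 994 bp upstream of its start). It shares the interval with pqn-59.

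Of 18 genes of Notch response and ectoderm or body axis specification, 5 were listed in F14', in 6 intervals with a median of 296 tags per kb. Of all protein-coding reference genes 2.55% had an F14' interval. The lists were chosen with earlier results known, so nothing is read from this difference. The T-box gene tbx-37, which is switched on in early anterior cells of the embryo, had an interval across its start (284 tags per kb, fold 2.08). So did the homeobox gene ceh-27 (304, fold 2.14), whose interval is also listed with F46F3.22, and the posterior Hox gene nob-1 (288, fold 1.88). A second nob-1 interval (312, fold 1.85) was centred 19112 bp upstream. The anterior Hox gene ceh-13 (284, fold 1.74) and the even-skipped homologue vab-7 (336, fold 2.64) had intervals that did not contain the start. The 6 ran from 284 to 336 tags per kb, where the median of all F14' intervals was 301.

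Lists for other tissues in a whole nematode gave 0 of 18 oocyte and germline genes and 0 of 13 intestine and yolk genes in F14'. Of 19 SKN-1 detoxification targets, gst-4 and gcs-1 among them, 0 were listed. Of all protein-coding reference genes 2.55% had an F14' interval, so counts of 0 in lists this short are near that share. Of 23 sperm genes, 2 were listed in F14', namely msp-113, which encodes a major sperm protein (490 tags per kb, fold 5.23), and spe-41, which encodes a sperm calcium channel (294, fold 2.46). Their intervals were centred 1278 bp downstream and 1307 bp upstream of the starts, and neither contained its start. These lists too were chosen with earlier results known, so nothing is read from the counts.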

How the data were processed

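The members and gene lists were chosen with earlier results of these data known. Per the submitters' processing notes, the authors used Bowtie2 2.1.0, MACS 1.4.0rc2 and build ce10, and peaks were called per sample. Per the labels' protocols, chromatin was fixed for 30 min in 2% formaldehyde and sheared to 200 to 800 bp. The deposited tables give per interval a raw tag count, a fold (a ratio over the caller's background), a score (-10 log10 p) and, in F11, an FDR in percent. How genes and classes were assigned, and the background of the F14' folds, are not given in the sources used here.

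Rows (103 in F11, 1025 in F14') were collapsed to unique intervals. Tags per kb are the count over interval width. Distances follow the gene's strand, and the deposited ones equal those of the interval centre within 0.5 bp. Overlap needed at least 1 bp. Density intervals are exact Poisson, shares exact Clopper-Pearson, and ratios conditional binomial. Genes were matched to a RefSeq table of WBcel235 (95 of 100 identifiers in F11, 913 of 923 in F14'). It was used for names, gene types, chromosomes, gene order and the totals behind shares of genes, not for positions. Of the list genes, vet-4, vet-5 and opt-2 had no match. The genes named are every member, the intervals next to it in tag density, the 3 pairs nearest to pes-10 in ratio, and listed genes with a peak. No test was possible with 1 library per group. The background code was checked by recovering set Poisson means from scores made with the same formula, and the overlap code on made-up intervals. Whether the caller's p refers to these tags and widths was not tested. The code ran in Python 3.11.15 with pandas 2.3.3, scipy 1.17.1, numpy 2.4.6 and matplotlib 3.10.9.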

Additional observations from a re-analysis of the deposited data

How the results depend on the processing

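Of 20 alternative settings, 14 stayed within 1.5 times the main count or within the counting interval of the main ratio, and 6 moved. With an FDR of at most 5%, the F11 member count of 1 fell to 0. At a score of at least 100, 1 of the 7 F14' intervals remained, the dense one listed with lgc-35. With starts within 1 kb, 0 genes in F11 and 2 in F14' (sdz-19 and sdz-16) kept an interval, against 1 and 6. These settings keep fewer intervals or genes by construction. The median score of all F14' intervals was 64.1, so a limit of 100 drops most of them too. How many of all F11 intervals have an FDR of at most 5% was not counted. The F11 to F14' density ratio at pes-10, 0.823, was 0.791 relative to each table's median density and 0.768 over the length of the joined interval, a change that follows from the divisor. Other overlap rules, the nearest gene, a score of at least 50, starts within 3 kb, the deposited fold (0.821) and promoter limits of 1 and 2 kb stayed within those limits. The ratio of folds is a different measure from that of densities, and the F14' background is not stated. Its closeness to 0.823 is therefore not a check of the density ratio. Leaving out a replicate could not be done. No paired analysis was possible because each group has 1 library. Tag counts between 338 and 621 limit the order of the shallow intervals, and unknown depth limits the ratio.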
